A study of Mus musculus with 23 samples.

Results

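The Ifit family in this mouse data set comprised 5 genes, Ifit1, Ifit2, Ifit3, Ifit3b and Ifit1bl1. They were taken by symbol from a deposited table of 52636 genes, and all 5 symbols were found. Each gene had reads in all 23 libraries, and the lowest count in any library was between 717 for Ifit1bl1 and 5309 for Ifit3. All 5 passed the filter on low counts that left 15782 genes to be tested.

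IFIT proteins (interferon-induced proteins with tetratricopeptide repeats) are scarce in resting cells and are made in bulk after type I interferon. In macrophages, LPS (bacterial lipopolysaccharide) is sensed by TLR4, whose adaptor TRIF leads through IRF3 to secretion of interferon-beta. Interferon-beta acts back on the receptor IFNAR1-IFNAR2, and transcription factors that include STAT2 and IRF9 then bind interferon-stimulated response elements in the promoters of the target genes. IFIT1 binds RNA whose cap lacks ribose methylation and keeps it from being translated, IFIT2 restricts several viruses and has been tied to cell death, and IFIT3 is known from human cells to bind and stabilise IFIT1. Ifit3b is a close copy of Ifit3, and Ifit1bl1 is a mouse gene related to Ifit1.

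The cells were bone marrow derived macrophages, which are grown from bone marrow progenitors, and the samples were labelled Stk40 KO or wild type (WT) for Stk40. STK40 is a kinase-like protein that can bind the ubiquitin ligase COP1. Each genotype was sampled untreated (T0) and after LPS at T6, T16 and T32. The groups held 3 libraries each, except WT at T16 with 2, so that 12 libraries were labelled KO and 11 WT. The sources used here do not give the unit of the T labels, the strain, age and sex of the mice, how the knockout was made, or if each replicate was its own mouse or culture. The p-values therefore stand for the spread among these libraries, part of which, and in the KO-labelled groups all of which, may be technical.

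Between 19455080 and 44097733 reads per library were counted on genes. Stk40 RNA was not lower in the KO-labelled libraries: it averaged 56.5 CPM (the read count relative to the TMM-scaled library total) in KO-labelled and 48.1 CPM in WT-labelled T0 libraries, and its log2 fold change of KO over WT lay between 0.23 and 0.43 over the 4 times, with no call. The genotypes are therefore given by the labels alone. Macrophage markers summed to 14840 to 30270 CPM in all libraries, and at T16 and T32 they were lower in KO-labelled libraries without overlap. Transcripts of Y-linked genes reached 1223 to 3485 counts in 4 WT-labelled libraries (replicate 2 at T0, replicate 1 at T6, replicate 2 at T16 and replicate 3 at T32). Each other library, all KO-labelled ones included, had 0 to 4 counts. Every WT-labelled group thus held libraries with and without them, which cannot all come from the same animal. Y-linked transcripts mark male cells, so sex was not balanced between the genotype labels. Another set of 4 libraries, in which WT-labelled T16 replicate 2 is found again, stood apart from the rest of their groups. In KO-labelled T0 replicate 1, mitochondrially encoded genes took 0.35% of counts, against 1.38% to 1.82% in the other T0 libraries. In replicate 2 of the KO-labelled and WT-labelled T6 groups that share was 0.68% and 1.1%, and the remaining T6 libraries had 0.35% to 0.47%. WT-labelled T16 replicate 2 held 47810 CPM of the acute-phase gene Saa3, against 21830 CPM in the other WT-labelled T16 library. With 2 libraries in that group, the group itself cannot show which of them was unusual. Some results that rest on these libraries are also given without them, and the rises from T0 to T6 are given only with them.

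The 5 genes lie within 99316 bases on chromosome 19 (GRCm38, chr19:34550694-34650009, GENCODE M21). Ifit2 (ENSMUSG00000045932, chr19:34550694-34576419), Ifit3 (ENSMUSG00000074896, chr19:34583531-34588731), Ifit3b (ENSMUSG00000062488, chr19:34607970-34613401) and Ifit1 (ENSMUSG00000034459, chr19:34640871-34650009) are on the plus strand. Ifit1bl1 (ENSMUSG00000079339, chr19:34592891-34601956) is on the minus strand, between Ifit3 and Ifit3b. Exons of the 5 genes overlap no other annotated gene. Copies within the cluster share sequence: of all 50-base stretches of the annotated transcripts, 51.2% of those of Ifit3 occur also in another gene, Ifit3b. For Ifit3b that share was 45.0%, for Ifit1 7.1%, for Ifit1bl1 6.5% and for Ifit2 0.0%. Reads were 50 bases long and the counts are of uniquely aligning reads, so Ifit3 and Ifit3b each lose reads from their common stretches and their levels are uncertain. Summed counts of the pair are given at T0 and where a call differs.

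The bases before the start sites of the 5 genes are shown because interferon is known to act through an element in the promoters of its target genes. They are RefSeq sequences of GRCm38.p6, read 5′ to 3′ along each gene's strand and ending at the base before the start site. Capitals mark matches to GAAA, any 2 bases (NN) and GAAA again, on either strand, the core letters of the interferon-stimulated response element. Ifit3 is chr19:34583279-34583528 (plus strand), Ifit3b chr19:34607707-34607956 (plus), Ifit1bl1 chr19:34601969-34602218 (minus) and Ifit2 chr19:34550444-34550693 (plus). For Ifit1 the 145 bases that separate its start site from that of its divergent neighbour Ifit1bl2 are shown, chr19:34640744-34640888 (plus).
Ifit1: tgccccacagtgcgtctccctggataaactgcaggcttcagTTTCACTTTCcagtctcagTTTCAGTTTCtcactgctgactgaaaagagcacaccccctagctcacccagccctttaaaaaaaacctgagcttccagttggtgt
Ifit3: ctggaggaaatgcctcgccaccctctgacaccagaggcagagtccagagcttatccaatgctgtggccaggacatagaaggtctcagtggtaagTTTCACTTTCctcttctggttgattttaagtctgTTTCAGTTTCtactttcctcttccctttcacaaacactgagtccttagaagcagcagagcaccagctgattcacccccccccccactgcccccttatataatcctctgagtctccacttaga
Ifit3b: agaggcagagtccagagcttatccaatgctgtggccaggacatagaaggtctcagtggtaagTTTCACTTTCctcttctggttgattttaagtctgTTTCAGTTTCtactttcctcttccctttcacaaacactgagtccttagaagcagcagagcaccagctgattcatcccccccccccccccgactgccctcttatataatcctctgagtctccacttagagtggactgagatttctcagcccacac
Ifit1bl1: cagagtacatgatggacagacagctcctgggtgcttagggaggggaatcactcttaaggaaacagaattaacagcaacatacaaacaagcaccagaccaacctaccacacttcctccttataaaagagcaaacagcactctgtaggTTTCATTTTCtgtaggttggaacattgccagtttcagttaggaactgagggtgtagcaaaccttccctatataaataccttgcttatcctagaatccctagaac
Ifit2: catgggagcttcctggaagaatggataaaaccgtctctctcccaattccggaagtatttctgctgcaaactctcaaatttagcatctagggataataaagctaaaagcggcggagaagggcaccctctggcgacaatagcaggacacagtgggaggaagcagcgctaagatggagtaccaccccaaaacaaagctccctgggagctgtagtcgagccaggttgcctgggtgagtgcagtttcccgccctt

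Ifit1, Ifit3 and Ifit3b each hold 2 matches, which read TTTCACTTTC and TTTCAGTTTC in all 3 genes. The matches begin 104 and 85 bases before the start site in Ifit1, 156 and 122 bases before it in Ifit3, and 188 and 154 bases before it in Ifit3b. Ifit1bl1 holds 1 match, TTTCATTTTC, 104 bases before the start site. The window of its second RefSeq start site, not shown, also holds 1 match with the same letters, 23 bases before that site. The Ifit2 window holds 0 matches to these letters, as does the window of its second RefSeq start site. Among 32851 RefSeq windows of 250 bases, 2.98% hold at least 1 match and 0.18% hold 2 or more. The Ifit3 and Ifit3b windows are identical at 217 of 224 aligned positions (96.9%), with 1 mismatch and 6 gap positions. A match is a description of the letters and no evidence of binding.

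In untreated macrophages, all 5 Ifit genes were higher in the KO-labelled libraries than in the WT-labelled ones, by 3.66-fold to 6.33-fold. A gene was called changed when edgeR's quasi-likelihood test gave a Benjamini-Hochberg adjusted p under 0.05 over the 15782 genes. By that rule 5 of 5 members rose at T0, against 1.83% of all genes. For 5 of 5, every KO-labelled library lay above every WT-labelled one, which held for 8.79% of all genes. The median log2 fold change was 1.97 over the 5 members and 0.002 over all genes. In bulk samples, more cells that express a gene and more RNA per cell cannot be told apart. Levels per length are given in the authors' nRPKM, an RPKM adjusted by a size factor of each library.

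Ifit1 stood at 144, 85.7 and 119 nRPKM in the KO-labelled T0 libraries (replicates 1, 2 and 3), against 28.9, 37.4 and 22.6 nRPKM in the WT-labelled ones. The 2 groups did not overlap, and the log2 fold change was 1.97 ± 0.24 (SE, n = 3 per group, edgeR adjusted p = 7.07e-05). Ifit2, the most changed member, stood at 374, 96.4 and 152 nRPKM in KO-labelled libraries, against 28.9, 48.6 and 20.5 nRPKM in WT-labelled ones. The first KO-labelled library, which stood apart, was more than the other 2 KO-labelled libraries combined. The log2 fold change was 2.66 ± 0.49 (SE, edgeR adjusted p = 0.00363), and without that library 1.92, its lowest value over all 23 omissions of a single library. When only the 6 T0 libraries were fitted, the value was 2.65 and the call was lost (edgeR adjusted p = 0.0666).

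Ifit3 was at 431, 318 and 419 nRPKM in KO-labelled libraries, against 92.5, 142 and 62.3 nRPKM in WT-labelled ones. It was the most abundant member per length in both genotypes, and its log2 fold change was 1.97 ± 0.27 (SE, edgeR adjusted p = 0.000256). Its copy Ifit3b was at 72.7, 42.0 and 62.5 nRPKM in KO-labelled libraries, against 12.2, 21.5 and 8.20 nRPKM in WT-labelled ones. Its log2 fold change was 2.08 ± 0.34 (SE, edgeR adjusted p = 0.00126), and that of the summed counts of Ifit3 and Ifit3b was 1.99 ± 0.28 (SE, edgeR adjusted p = 0.000322).

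Ifit1bl1 was at 73.4, 25.6 and 37.6 nRPKM in KO-labelled libraries, against 10.9, 19.97 and 6.45 nRPKM in WT-labelled ones. The lowest KO-labelled library was close to the highest WT-labelled one. Its log2 fold change was 1.87 ± 0.47 (SE, edgeR adjusted p = 0.0413). This call was the least stable at T0: it was lost in 11 of 23 omissions of a single library. Without KO-labelled replicate 1 the log2 fold change was 1.34 (edgeR adjusted p = 0.321). The call was also lost with no filter on low counts (1.87, edgeR adjusted p = 0.175). Without all 4 libraries that stood apart, Ifit1 (1.78, adjusted p = 0.000177), Ifit2 (1.92, 0.00387), Ifit3 (1.89, 0.00111) and Ifit3b (1.9, 0.0285) were still called by edgeR, and Ifit1bl1 (1.34, 0.268) was not. Without the 4 Y-linked WT-labelled libraries, log2 fold changes were 2.17 to 3.07 and all 5 members were called by edgeR.

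Markers of other cell types were summed in the same libraries. At T0, summed markers of neutrophils and their precursors (12 of 12 genes detected) were 650 to 754 CPM in KO-labelled and 345 to 644 CPM in WT-labelled libraries, without overlap, and 1 of 12 was called higher. Markers of plasmacytoid dendritic cells, which are strong producers of interferon, summed to 99.5 to 109 CPM in KO-labelled and 74.01 to 90.1 CPM in WT-labelled libraries, also without overlap, and 0 of 5 tested were called. The part of either in the Ifit result was not tested.

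**Figure D1:**
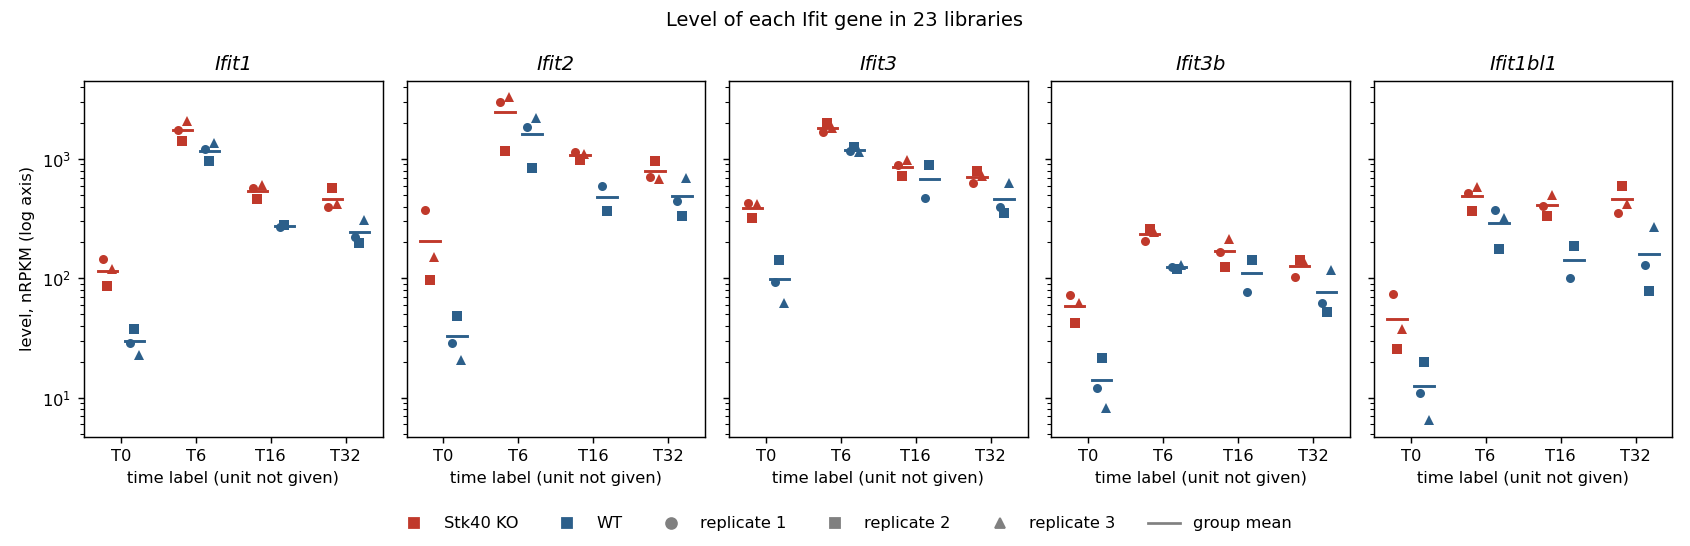
Level of each Ifit gene in every library, in nRPKM on a log axis, by time label; Stk40 KO libraries in red to the left of WT in blue, with 1 marker shape per replicate and a bar at the group mean. At T0 all KO-labelled points lie above all WT-labelled points for all 5 genes, and the T6 points of Ifit2 spread from 1170 to 3297 nRPKM in KO-labelled and from 834 to 2200 nRPKM in WT-labelled libraries.

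All 5 members were higher after LPS, at T6, T16 and T32, than at T0 in both genotypes. The only untreated libraries are those of T0, so LPS and time in culture cannot be told apart. Ifit1, Ifit2, Ifit3 and Ifit3b had their highest group mean at T6. Ifit1bl1 did so in WT-labelled libraries, and in KO-labelled ones it averaged 1187 CPM at T6 and 1192 CPM at T32. At T6 against T0, 5 of 5 members rose in KO-labelled libraries, where 26.2% of all genes rose, and 5 of 5 in WT-labelled libraries, where 27.3% rose. Together the 5 genes took 1.0% to 1.66% of all counted reads in KO-labelled T6 libraries and 0.192% to 0.39% in KO-labelled T0 libraries. In WT-labelled libraries they took 0.749% to 1.35% at T6 and 0.0469% to 0.0987% at T0. The 2 genotypes have separate T0 libraries, so each fold change below is against the T0 level of its own genotype.

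Ifit2 gained most in WT-labelled cells, with 1865, 834 and 2200 nRPKM at T6, against 28.9, 48.6 and 20.5 nRPKM at T0. The log2 fold change was 5.56 ± 0.56 (SE, edgeR adjusted p = 4.66e-08), the largest of any member in any comparison. In KO-labelled cells, Ifit2 was at 3027, 1170 and 3297 nRPKM at T6, with a log2 fold change against T0 of 3.48 ± 0.51 (SE, edgeR adjusted p = 6.6e-06). In each genotype the second T6 replicate, one of the libraries that stood apart, was well below the other 2.

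Ifit1 was at 1749, 1404 and 2081 nRPKM in KO-labelled T6 libraries, and its log2 fold change against T0 was 3.80 ± 0.26 (SE, edgeR adjusted p = 1.32e-10). In WT-labelled T6 libraries it was at 1206, 959 and 1351 nRPKM, with a log2 fold change of 5.22 ± 0.27 (SE, edgeR adjusted p = 4.65e-12). These were the most tightly measured inductions of the family.

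Ifit3 was at 1686, 2010 and 1815 nRPKM in KO-labelled T6 libraries and at 1162, 1272 and 1148 nRPKM in WT-labelled T6 libraries. Unlike Ifit2, it was highest in the second replicate of each genotype. The log2 fold change against T0 was 2.13 ± 0.27 in KO-labelled and 3.51 ± 0.29 in WT-labelled libraries (SE, edgeR adjusted p = 1.27e-06 and 2.51e-09). For Ifit3b it was 1.89 ± 0.34 and 3.08 ± 0.35 in the same order, and for Ifit1bl1 3.32 ± 0.49 and 4.47 ± 0.52, all 4 called.

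The members were still above T0 at the late times. At T16 against T0, 5 of 5 rose in KO-labelled libraries (20.4% of all genes), by log2 1.13 to 3.15, and 5 of 5 in WT-labelled libraries (18.8% of all genes), by log2 2.77 to 3.86. At T32 against T0, 5 of 5 rose in KO-labelled libraries (18.2% of all genes), by log2 0.87 to 3.33, and 5 of 5 in WT-labelled libraries (24.5% of all genes), by log2 2.22 to 3.92. The smallest of these, Ifit3 in KO-labelled cells at T32, was at 627, 793 and 721 nRPKM, against 431, 318 and 419 nRPKM at T0. Its log2 fold change was 0.87 ± 0.27 (SE, edgeR adjusted p = 0.0137). That of Ifit3b was 1.10 (edgeR adjusted p = 0.0123). Without KO-labelled T0 replicate 2 neither was called by edgeR (0.74 and 0.90, adjusted p = 0.0729 and 0.0727). When scaled by library totals alone, Ifit3 had 0.53 and was not called (edgeR adjusted p = 0.0678).

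Between T6 and T16 the members differed. In KO-labelled libraries 2 of 5 fell, where 21.8% of all genes fell: Ifit1 with a log2 fold change of -1.59 ± 0.24 and Ifit3 with -0.998 ± 0.27 (SE, edgeR adjusted p = 1.32e-05 and 0.00429). In WT-labelled libraries 2 of 5 fell, where 19.5% of all genes fell: Ifit1 with -2.02 ± 0.28 and Ifit2 with -1.70 ± 0.55 (SE, edgeR adjusted p = 7e-06 and 0.017). Ifit2 in KO-labelled libraries had -1.12 (edgeR adjusted p = 0.0564) and was called by DESeq2 (adjusted p = 0.0184) and, in edgeR, without the 4 libraries that stood apart (-1.47, adjusted p = 0.00137). Ifit3 in WT-labelled libraries had -0.74 (edgeR adjusted p = 0.0547) and was called by DESeq2 (adjusted p = 0.0222), and in edgeR without the Y-linked libraries (-1.27, 0.00263) and without the 4 libraries that stood apart (-1.23, 0.0214). DESeq2 thus called 3 members in each genotype. The WT-labelled Ifit2 call of edgeR was lost without WT-labelled T16 replicate 2 (-1.38, adjusted p = 0.159), without WT-labelled T6 replicate 3 (-1.43, 0.0565), without the Y-linked libraries (-1.27, 0.223) and with no filter on low counts (-1.69, 0.0674). The summed counts of Ifit3 and Ifit3b fell in KO-labelled libraries (-0.91 ± 0.28 SE, edgeR adjusted p = 0.0106), where Ifit3b on its own had -0.40 and no call. Ifit1bl1 had -0.17 ± 0.45 in KO-labelled and -0.96 ± 0.52 in WT-labelled libraries, with neither called, and a 95% interval of -1.11 to 0.77 for KO-labelled cells. At T32 against T16, 0 of 5 members were called in KO-labelled and 0 of 5 in WT-labelled libraries by edgeR, with 0 at an unadjusted p under 0.05 and 0 by DESeq2 in each. Of all genes, 2.55% were called in that comparison in KO-labelled libraries and 2.91% in WT-labelled libraries.

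At T6 itself, 0 of 5 members were called between genotypes by edgeR, where 0.298% of all genes were. At an unadjusted p under 0.05 there were 3 (Ifit1, Ifit3 and Ifit3b), and DESeq2 called 0. All 5 log2 fold changes of KO over WT were positive, between 0.54 and 0.89, and for Ifit1, Ifit3 and Ifit3b every KO-labelled library lay above every WT-labelled one, which held for 5.96% of all genes. Ifit1 had a log2 fold change of 0.54 with a 95% interval of 0.06 to 1.02, and Ifit2 one of 0.58 with an interval of -0.39 to 1.54. With the replicate number as a block among the T6 libraries, Ifit1 had 0.54 (0.09 to 0.98) and Ifit2 0.56 (-0.27 to 1.38), and again 0 of 5 members were called by edgeR, with 3 at an unadjusted p under 0.05. That block moved the count of all genes called at T6 to 143, against 47 without it. Summed markers of neutrophils and their precursors at T6 were 618 to 753 CPM in KO-labelled and 329 to 556 CPM in WT-labelled libraries. Those of plasmacytoid dendritic cells were 291 to 396.5 CPM and 237 to 261 CPM in the same order. At T0 the plasmacytoid sums were 99.5 to 109 CPM and 74.0 to 90.1 CPM. This sum thus rose between T0 and T6 after LPS in both genotypes and cannot be read as a share of cells. The part of either sum was not tested. Without the 4 libraries that stood apart, the 5 values were 0.54 to 0.78 and none was called by edgeR.

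At T16, 1 of 5 members rose in KO-labelled libraries, Ifit1, where 4.16% of all genes rose. Ifit1 was at 568, 462 and 602 nRPKM in KO-labelled libraries, against 271 and 279 nRPKM in the 2 WT-labelled ones. The groups were well separated, and the log2 fold change was 0.97 ± 0.26 (SE, n = 3 and 2, edgeR adjusted p = 0.0293). The size held when a library was left out (0.89 to 1.07), and the call was lost without KO-labelled replicate 1 or 3 or either WT-labelled library. Without the 4 Y-linked libraries the value was 0.98 (edgeR adjusted p = 0.179), and without the 4 libraries that stood apart 0.98 (edgeR adjusted p = 0.0592). Both leave 1 WT-labelled T16 library, which is then assumed to vary like the other groups. At T16 the summed markers of neutrophils and their precursors were 372 to 469.5 CPM in KO-labelled and 154 to 343 CPM in WT-labelled libraries. Those of plasmacytoid dendritic cells were 94.0 to 107 CPM in KO-labelled and 49.5 to 77.5 CPM in WT-labelled libraries. Neither sum overlapped. Without overlap too, macrophage markers (20890 to 22010 against 23060 to 27160 CPM) and stromal and endothelial markers (160 to 326 against 426 to 441 CPM) were lower in KO-labelled libraries. So were erythroid markers (0.39 to 0.53 against 0.76 to 1.24 CPM). Conventional dendritic cell markers (2.92 to 3.48 against 1.54 to 2.12 CPM) and mast cell and basophil markers (2.37 to 3.50 against 0.86 to 1.61 CPM) were higher. The part of these sums in the T16 differences was not tested.

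Ifit1bl1 was at 400, 332 and 499 nRPKM in KO-labelled T16 libraries, against 102 and 185 nRPKM in WT-labelled ones. The groups did not overlap, and the log2 fold change of 1.51 ± 0.53 (SE) missed the threshold in edgeR (adjusted p = 0.0836) and passed it in DESeq2 (adjusted p = 0.0265). Ifit2 was at 1147, 983 and 1102 nRPKM in KO-labelled libraries, against 591 and 365 nRPKM in WT-labelled ones, with a log2 fold change of 1.16 ± 0.54 (SE, edgeR adjusted p = 0.185). Ifit3 was at 891, 717 and 983 nRPKM in KO-labelled libraries, against 469 and 898 nRPKM in WT-labelled ones, so that the groups overlapped. Its log2 fold change was 0.33, and 0.85 without WT-labelled replicate 2 and -0.06 without WT-labelled replicate 1. Groups without overlap and with the KO-labelled one higher were seen for 3 of 5 members, against 20.4% of all genes.

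At T32, 1 of 5 members again rose in KO-labelled libraries by edgeR, Ifit1, where 3.05% of all genes rose. Ifit1 was at 399, 576 and 423 nRPKM in KO-labelled libraries, against 222, 198 and 311 nRPKM in WT-labelled ones. The log2 fold change was 0.92 ± 0.23 (SE, edgeR adjusted p = 0.0202), with 0.75 to 1.13 when a library was left out. The call was lost without WT-labelled replicate 1 or 2 or KO-labelled replicate 2. Ifit1bl1 was at 355, 598 and 421 nRPKM in KO-labelled libraries, against 129, 77.8 and 272 nRPKM in WT-labelled ones. Those groups did not overlap either, and the log2 fold change of 1.51 ± 0.46 (SE) had an edgeR adjusted p of 0.0552 and a DESeq2 adjusted p of 0.0124.

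Ifit2 (0.66), Ifit3 (0.62) and Ifit3b (0.71) had positive log2 fold changes at T32, with groups that overlapped in CPM and no call. For Ifit3 the overlap was slight (1252 CPM in the lowest KO-labelled and 1260 CPM in the highest WT-labelled library), and in nRPKM the same libraries stood at 627.4 and 626.7 without overlap. The overlap came through WT-labelled replicate 3, which held Y-linked transcripts and was the highest WT-labelled library for all 5 members. Without the 4 Y-linked libraries, 4 of 5 members were called by edgeR at T32, namely Ifit1 (1.13), Ifit3 (0.91), Ifit3b (1.14) and Ifit1bl1 (2.13). Separation in CPM with the KO-labelled group higher was seen for 2 of 5 members in all libraries, against 17.5% of all genes. At T32 the summed markers of neutrophils and their precursors were 196 to 287 CPM in KO-labelled and 70.8 to 89.8 CPM in WT-labelled libraries, and 2 of 12 were called higher. Their part in these differences was not tested.

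**Figure D2:**
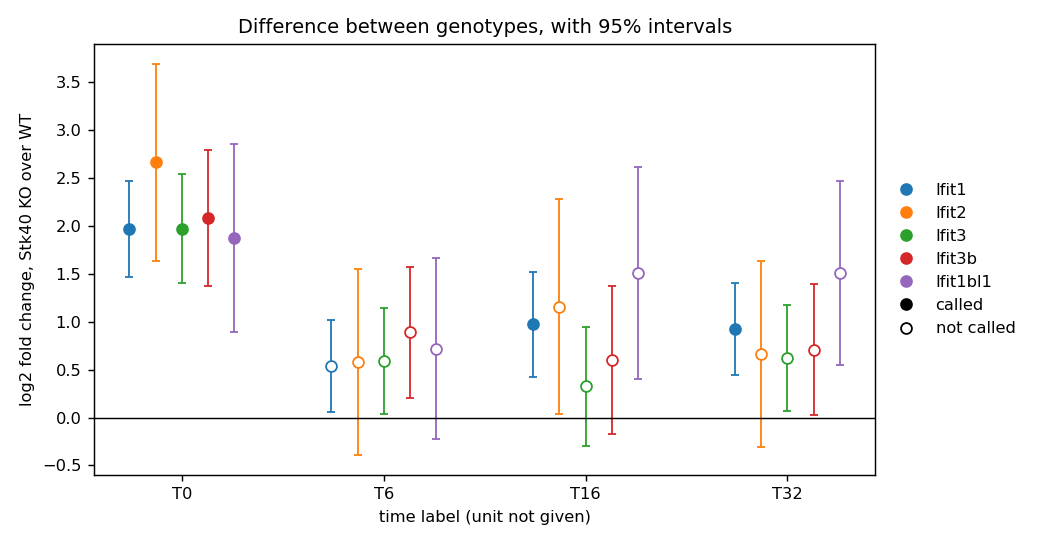
Log2 fold change of each Ifit gene, Stk40 KO over WT, at each time label, with 95% intervals calculated from the edgeR test. Filled points passed an edgeR adjusted p under 0.05. All 5 points are filled at T0 (1.87 to 2.66), 0 at T6 (0.54 to 0.89), and that of Ifit1 alone at T16 (0.97) and T32 (0.92).

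The difference between genotypes was also compared with that at T0 by an interaction term. By T6 the log2 difference had changed by -1.16 to -2.09 over the 5 members. In edgeR 0 of 5 were called, with 4 at an unadjusted p under 0.05, where 0.101% of all genes were called. DESeq2 called 1, Ifit1 (-1.40, adjusted p = 0.0139). Ifit1 had -1.43 ± 0.33 and Ifit2 -2.09 ± 0.66 (SE, edgeR adjusted p = 0.126 and 0.487). By T16 the change was -0.36 to -1.64, and by T32 -0.36 to -2.0, with 0 of 5 called by edgeR and 4 at an unadjusted p under 0.05 at each. DESeq2 called 1 at each, Ifit3 (adjusted p = 0.0148 and 0.0433). Of all genes, edgeR called 0.0697% by T16 and 0.387% by T32. The 3 interaction tests share the T0 libraries of both genotypes. For Ifit1bl1 the late change was smallest, -0.36 with a 95% interval of -1.77 to 1.05 by T16, and its sign turned without KO-labelled T0 replicate 1 (0.17).

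The members did not keep the same proportions. In the summed nRPKM of the 5 genes, Ifit3 made up 39.3% to 56% in KO-labelled and 51.9% to 53.4% in WT-labelled T0 libraries, and Ifit2 made up 17.0% to 34.2% and 16.7% to 18.04% in the same order. At T6, Ifit2 made up 42.1%, 22.4% and 41.1% in KO-labelled and 39.4%, 24.8% and 42.7% in WT-labelled libraries. In nRPKM, Ifit2 was therefore the highest member in replicates 1 and 3 of both genotypes, and Ifit3 in replicate 2. The nRPKM divides by the whole gene size, while 51.2% of the 50-base stretches of Ifit3 recur in Ifit3b and lose reads. For Ifit2 that share was 0.0%, so which of these transcripts was more abundant in replicates 1 and 3 cannot be told. Ratios can still be compared between libraries. The ratio of Ifit2 to Ifit3 (nRPKM) was 1.80, 0.58 and 1.82 in KO-labelled and 1.61, 0.66 and 1.92 in WT-labelled T6 libraries.

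The same libraries that stood apart in other genes held these exceptions. In KO-labelled T0 replicate 1 the ratio of Ifit2 to Ifit3 was 0.87, against 0.30 and 0.36 in the other KO-labelled T0 libraries. In WT-labelled T16 replicate 2 it was 0.41, against 1.26 in the other library of that group. In the other groups at T16 and T32 it ran from 1.12 to 1.37 (KO-labelled T16), from 0.94 to 1.22 (KO-labelled T32) and from 0.94 to 1.12 (WT-labelled T32). In the T0 and T6 libraries named, the share of mitochondrially encoded counts moved opposite to the ratio: it was low where the ratio was high at T0 and high where the ratio was low at T6. Its part was not tested.

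Ifit1bl1 had its highest shares at the late times in KO-labelled libraries. It made up 4.51% to 6.71% of the summed nRPKM in KO-labelled libraries at T0, 7.08% to 7.27% at T6, 12.6% to 14.7% at T16 and 16.2% to 19.4% at T32. In WT-labelled libraries the ranges were 5.37% to 7.41% at T0, 5.28% to 7.9% at T6, 6.72% to 9.9% at T16 and 7.66% to 13.4% at T32. At T16 and at T32 every KO-labelled share lay above every WT-labelled share. The share of Ifit3b never exceeded 7.98%, which is uncertain because this gene loses reads from stretches shared with Ifit3. The order of mean nRPKM, with the same reservation for Ifit3 and Ifit3b, was Ifit3, Ifit2, Ifit1, Ifit3b, Ifit1bl1 at T0 in both genotypes. At T6 and T32 it was Ifit2, Ifit3, Ifit1, Ifit1bl1, Ifit3b in both. Ranges of Ifit2 and Ifit3 overlapped in 7 of the 8 groups, and in untreated WT-labelled cells they did not.

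**Figure D3:**
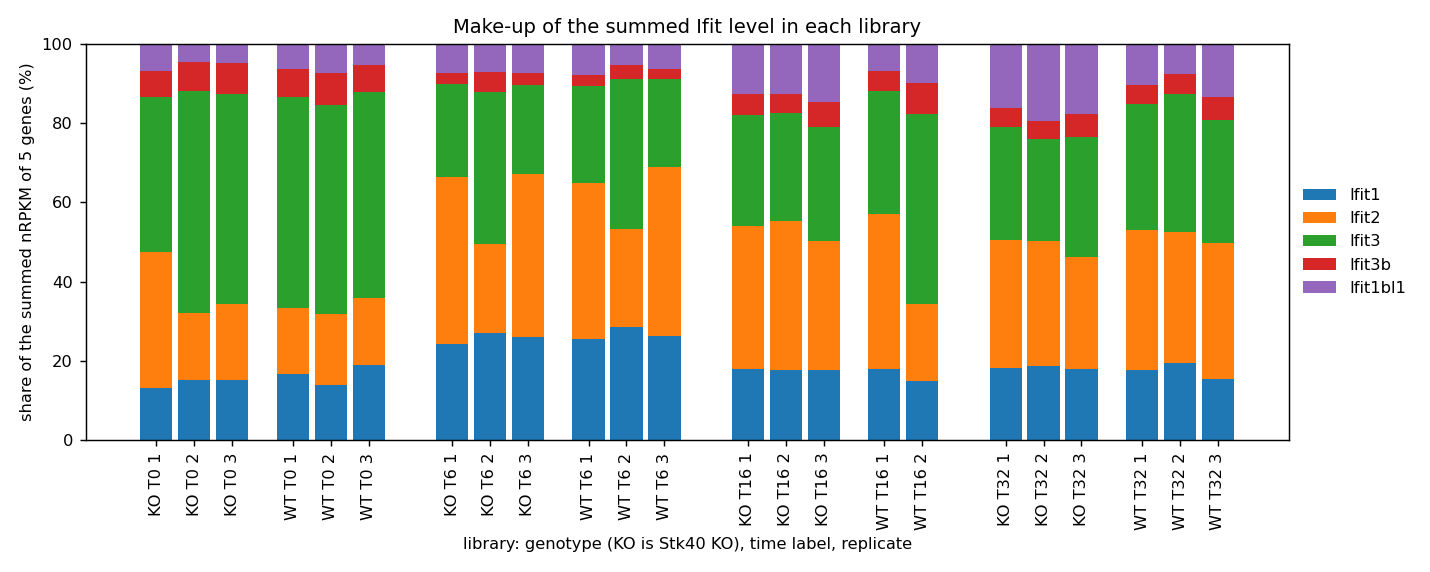
Share of each Ifit gene in the summed nRPKM of the 5 genes, for each library (percent, stacked bars), with Stk40 KO left of WT at each time label. The Ifit2 share is 22.4% and 24.8% in the second T6 replicates and 39.4% to 42.7% in the other T6 libraries, and the Ifit1bl1 share reaches 16.2% to 19.4% in KO-labelled T32 libraries.

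Across all 23 libraries the members moved together, with pairwise Pearson r of log2 CPM from 0.91 to 0.97. All of these values share the large step after LPS, the library scaling and, for Ifit3 and Ifit3b, part of their sequence. Around the group means, r was 0.97 for Ifit3 with Ifit3b, 0.91 for Ifit1 with Ifit1bl1 and 0.88 for Ifit1 with Ifit2. It was lowest for Ifit2 with Ifit3 (0.31). Among 9279 other genes with a mean of at least 5 CPM, the 8 whose log2 CPM followed the mean of the standardised members best were Phf11a (r = 0.991), Ifi211 (0.990), Phf11d (0.989), Tgtp2 (0.986), Phf11b (0.985), Rtp4 (0.984), Parp11 (0.983) and Mx1 (0.983). Over the 8 group means their r was 0.991 to 0.997. The closest gene to Ifit1 was Ifi204 (r = 0.996), to Ifit2 Znfx1 (0.995), to Ifit3 Rtp4 (0.983), to Ifit3b H2-T23 (0.964) and to Ifit1bl1 Tgtp1 (0.987). Correlations are over 23 libraries and describe these libraries only.

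Within 250 kb of the cluster, 6 other genes were tested. Ifit1bl2, which lies between Ifit3b and Ifit1 and is read in the opposite direction to Ifit1, was far weaker than the members, with 0.40 to 7.34 CPM in group means. It averaged 1.13 ± 0.20 CPM in KO-labelled and 0.40 ± 0.03 CPM in WT-labelled T0 libraries (SD, n = 3 each). It rose in KO-labelled libraries at T0 (log2 fold change 1.49 ± 0.29 SE, edgeR adjusted p = 0.00509), at T16 (1.15 ± 0.26, 0.0126) and at T32 (0.85 ± 0.23, 0.033). Of its 50-base stretches, 9.3% occur in another gene, 5.5% in Ifit1 and 4.2% in Ifit1bl1.

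Outside the cluster, Ch25h, whose enzyme turns cholesterol into an antiviral oxysterol, averaged 184.5 ± 31.7 CPM in KO-labelled and 79.2 ± 7.59 CPM in WT-labelled T6 libraries (SD, n = 3 each) and was not called there (edgeR adjusted p = 0.199). It rose in KO-labelled libraries at T16 (2.27 ± 0.47, edgeR adjusted p = 0.00724) and T32 (1.9 ± 0.44, 0.0117). The transcript Gm26902, whose exons overlap Ch25h and whose reads cannot be told apart from it without strand, rose at T16 (2.28, edgeR adjusted p = 0.027). The death receptor gene Fas, the lysosomal lipase gene Lipa and the pantothenate kinase gene Pank1 were called between genotypes at none of the 4 times by edgeR. Their log2 fold changes at T0 were 0.43 for Fas, 0.40 for Lipa and -0.38 for Pank1.

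**Figure D4:**
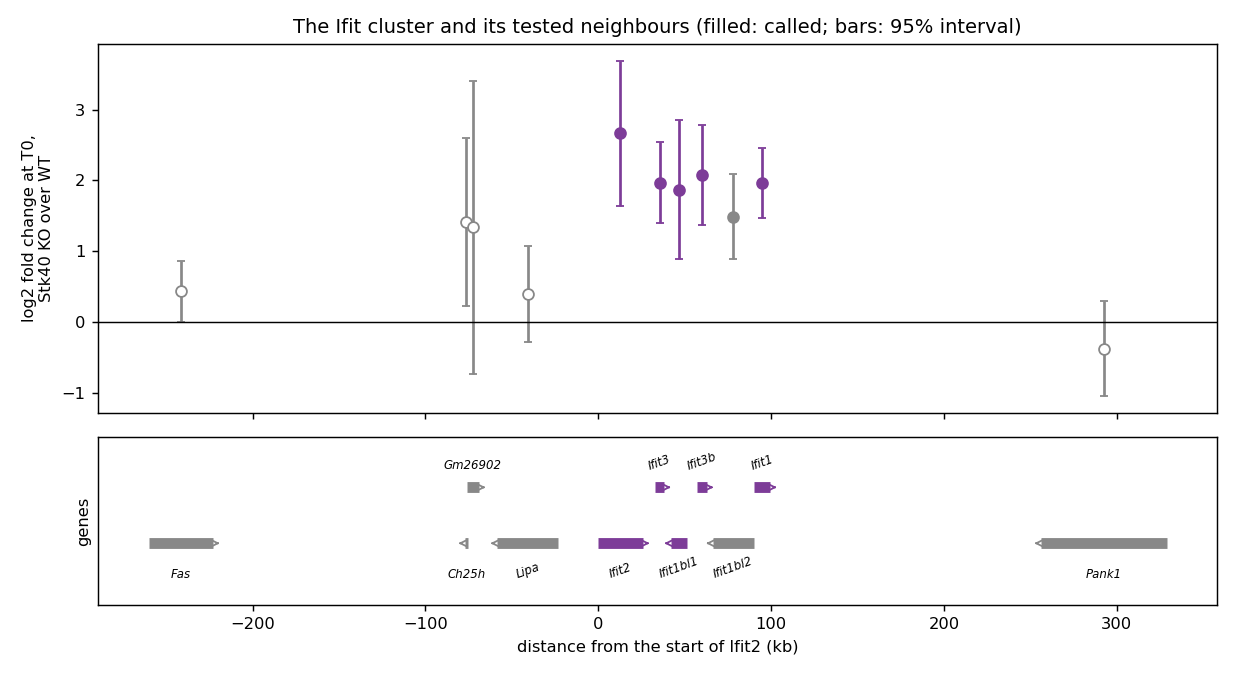
The Ifit cluster and the genes tested within 250 kb, with distance from the start of Ifit2 in kb (arrows show direction of transcription). Above them is the log2 fold change at T0, Stk40 KO over WT, with 95% intervals calculated from the edgeR test. The 5 Ifit genes (purple) lie between 1.87 and 2.66 and are filled because they were called, as is Ifit1bl2 (1.49); Fas, Ch25h, Gm26902, Lipa and Pank1 are open.

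The interferon pathway around the Ifit genes was followed in lists of 67 genes by role, 51 of them tested. These lists were made with earlier results of these data known. At T0, 20 of the 51 rose in KO-labelled libraries, where 1.83% of all genes rose, and 0 fell, and their median log2 fold change was 0.38. Among ligands, 17 type I interferon genes were listed and only Ifnb1, which encodes interferon-beta, had enough reads. Of the other 16, 13 had no count in any library and the highest count was 2.

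Ifnb1 had 52, 33 and 39 reads (1.31, 1.14 and 1.34 CPM) in KO-labelled T0 libraries, against 7, 10 and 4 reads (0.24, 0.36 and 0.10 CPM) in WT-labelled ones. The groups did not overlap, and the log2 fold change was 2.51 ± 0.51 (SE, edgeR adjusted p = 0.00905). At T6 it was at 2.80, 5.65 and 2.27 CPM in KO-labelled libraries, against 2.60, 2.29 and 2.198 CPM in WT-labelled ones, and was not called (0.58 ± 0.40 SE, edgeR adjusted p = 0.749). At T32 it was at 12.6, 18.4 and 15.4 CPM in KO-labelled libraries, against 3.74, 3.67 and 8.46 CPM in WT-labelled ones (1.56 ± 0.37 SE, edgeR adjusted p = 0.0144). At T16 Ifnb1 was at 3, 3.80 and 4.255 CPM in KO-labelled libraries, against 1.09 and 2.93 CPM in WT-labelled ones, and was not called by edgeR. Among the times sampled, the highest group mean of Ifnb1 was thus at T32 in both genotypes. That of Ifit1, Ifit2, Ifit3 and Ifit3b was at T6. No library was taken between T0 and T6, so an earlier peak of Ifnb1 would not be seen.

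Of the receptor subunits and their kinases, 0 of 4 were called at T0, with log2 fold changes of 0.04 for Ifnar1 and 0.08 for Ifnar2. Ifnar1 was called at T16 (0.51 ± 0.15 SE, edgeR adjusted p = 0.0459). Among transcription factors, 3 of 7 rose at T0. Stat2 averaged 622 CPM in KO-labelled and 239.5 CPM in WT-labelled libraries (log2 1.38 ± 0.17 SE, edgeR adjusted p = 8.16e-05). Irf9, whose protein binds STAT2, averaged 116 CPM and 86.4 CPM in the same order (0.43 ± 0.10, 0.0231). Irf7, which amplifies interferon production, averaged 1585 CPM and 405 CPM (1.97 ± 0.24, 8.02e-05).

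Among inhibitors of the signal, 1 of 4 rose at T0, Usp18, which blocks the receptor, at 208 CPM in KO-labelled and 76.9 CPM in WT-labelled libraries (log2 1.44 ± 0.24 SE, edgeR adjusted p = 0.00126). Of 17 other antiviral RNA sensors and effectors, 15 rose at T0, and Mavs and Oas2 were not called. In the route from TLR4 to interferon, 0 of 8 genes were called at T0. Of 10 genes of cap methylation and translation initiation, the processes IFIT proteins act on, 0 were called at T0. They included the cap ribose methyltransferase gene Cmtr1 (0.38 ± 0.23 SE) and Eif3c (0.11 ± 0.21 SE), which encodes a translation initiation factor subunit that mouse IFIT proteins bind.

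At T6, 0 of the 51 tested genes were called between genotypes by edgeR. At T16, 4 rose (Ifnar1, Tbk1, Eif2ak2 and Zc3hav1) and Eif3b alone fell, where 4.16% of all genes rose and 3.48% fell. At T32, Ifnb1, Tbk1 and Rsad2 rose and Cd14 alone fell, where 3.05% of all genes rose and 3.34% fell. These were named because the counts are small, after their values were seen. Of Stat2, Irf9, Irf7 and Usp18, 0 were called at T6, T16 or T32. From T0 to T6 after LPS, 40 of the 51 rose in each genotype and 3 fell. Of all genes, 26.2% rose and 32.4% fell in KO-labelled libraries, and 27.3% rose and 31.9% fell in WT-labelled ones. In both genotypes those included 16 of the 17 antiviral genes and 6 of the 7 transcription factors up, and Irf3, Mavs and the second cap methyltransferase gene Cmtr2 down.

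**Figure D5:**
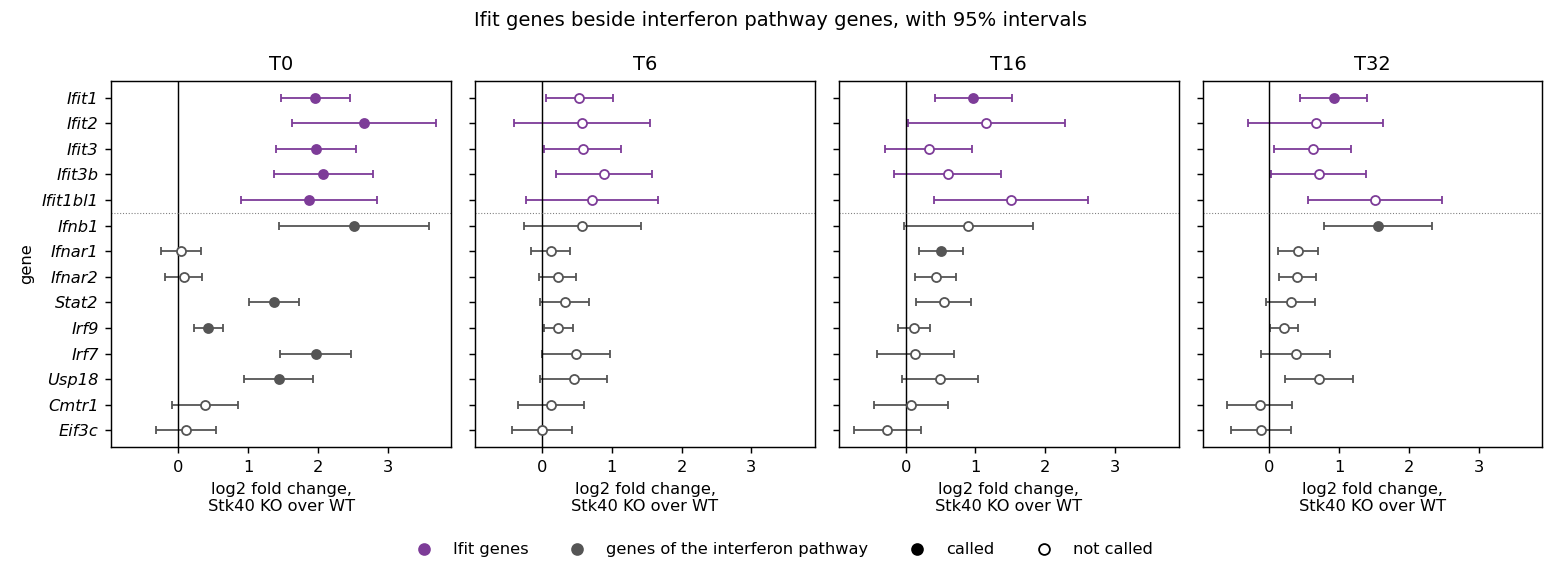
Log2 fold change, Stk40 KO over WT, at T0, T6, T16 and T32, with 95% intervals calculated from the edgeR test. Shown are the 5 Ifit genes (purple) and 9 genes of the interferon pathway (grey). Filled points passed an edgeR adjusted p under 0.05. At T0 the Ifit genes, Ifnb1 (2.51), Stat2 (1.38), Irf9 (0.43), Irf7 (1.97) and Usp18 (1.44) are filled, and at T6 all 14 points are open.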

How the data were processed

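Polyadenylated RNA was sequenced with a TruSeq RNA v2 kit, which does not mark strand, as single 50-base reads, per the labels' protocols. GSNAP and the build GRCm38 are named in the submitters' processing notes; no version, annotation or counter is named there. The deposited tables of the authors hold raw counts of uniquely aligning reads per gene, per the file headers, and a size-factor-adjusted RPKM (nRPKM), which equalled the count over gene size times 1 factor per library, 0.594 to 1.393 times the plain RPKM. The gene sizes and replicate numbers are also from the deposited tables.

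Counts of all 23 libraries were fitted in edgeR 4.0.16 (R 4.3.3; filterByExpr, TMM scaling, group means, robust quasi-likelihood) after tests on simulated data. DESeq2 1.42.0, other scalings and omissions of libraries were alternatives. Depth was 19455080 to 44097733 counts per library. Replicates differed by more than sampling noise in 22 of 22 pairs, and none was merged. Motifs and alignments used Python 3.11.15 and Biopython 1.88. The members and lists were chosen with earlier results of these data known. Genes named are the 5 members, the 8 genes most like their mean, the nearest gene of each, tested neighbours within 250 kb, and 9 pathway genes with Stk40; other list genes and Saa3 were named after their values were seen, and some list genes are not reported here. Replicate numbers were taken to pair the genotypes at T6, where the deviations of all 3 same-numbered pairs correlated (r = 0.329 to 0.593), and at no other time. The 4 libraries set apart and the replicate blocks were chosen after seeing the data. Promoter and gene coordinates are 1-based.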

Additional observations from a re-analysis of the deposited data

How the results depend on the processing

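Over all settings, the log2 fold changes of the 5 members in the 17 comparisons gave 2602 values with the direction and side of the threshold of the main fit, 33 that lost and 42 that gained a call, and 19 that changed sign. The cause was not tested for any of them. With no filter on low counts, Ifit1bl1 was lost at T0 between genotypes (1.87, edgeR adjusted p = 0.175). Members called at T0 were 3 when only the libraries compared were fitted (Ifit2 and Ifit1bl1 lost, edgeR adjusted p = 0.0666 and 0.156). They were 4 to 5 when a library was left out. At T16 they were 2 with DESeq2, 0 with only the libraries compared, 0 without the Y-linked libraries, 0 without the 4 libraries that stood apart and 0 to 1 when a library was left out. At T32 they were 2 with library totals, 2 with DESeq2, 4 without the Y-linked libraries, 2 without the 4 libraries apart and 0 to 2 when a library was left out. For KO T32 against T0 omissions gave 3 to 5, for KO T16 against T6 2 to 3, and for WT T16 against T6 1 to 3, or 1 with no filter. For KO T32 against T16, 1 was called with only the libraries compared. For the change of the genotype difference by T6, 1 was called with library totals, DESeq2, no filter or without the Y-linked libraries. By T16 it was 1 with DESeq2 and 0 to 2 in omissions, and by T32 1 with DESeq2 and 0 to 1 in omissions.

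Signs turned in uncalled values. With library totals, Ifit1bl1 had 0.22 in KO T16 against T6 and Ifit3b 0.21 in WT T16 against T6. In WT T32 against T16, Ifit2 had -0.59 without the Y-linked libraries and -0.26 without the 4 apart, where Ifit3b had 0.015. Without those 4, the Ifit1bl1 interaction was 0.65 by T16 and 0.17 by T32. In omissions of a single library, Ifit3 at T16 ranged from -0.056 to 0.85, Ifit1bl1 in KO T32 against T16 from -0.057 to 0.34, and Ifit3b in WT T16 against T6 from -0.62 to 0.26. In WT T32 against T16, Ifit2 ranged from -0.28 to 0.47, Ifit3b from -0.93 to 0.015 and Ifit1bl1 from -0.45 to 0.66. The Ifit1bl1 interaction ranged from -0.87 to 0.17 by T16 and from -0.88 to 0.26 by T32.

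Counts of all genes called between genotypes moved more. At T0 (307) they were 499 with DESeq2, 126 with only the libraries compared and 164 to 365 in omissions. At T6 (47) they were 122 with library totals (16 higher and 106 lower, against 33 higher and 14 lower with TMM), 232 with DESeq2, 29 with no filter, 0 with only the libraries compared, 28 without the Y-linked libraries, 191 without the 4 apart and 15 to 73 in omissions. At T16 (1206) they were 1991 with DESeq2, 705 with no filter, 9 with only the libraries compared, 117 without the Y-linked libraries and 109 to 3537 in omissions, the lowest without WT T16 replicate 2 and the highest without WT T16 replicate 1. At T32 (1009) they were 2688 with only the libraries compared, 2787 without the 4 apart and 363 to 1242 in omissions.

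The replicate numbers, which come from the deposited sample table, were taken to pair the genotypes at T6 only, where all 3 pairs correlated over 0.1. At T0 the same-numbered pairs had r of 0.098, 0.155 and 0.073, and each KO library was nearest its own number. A block within T0 alone was not fitted. Over all 11 same-numbered pairs r was -0.317 to 0.593, with 4 over 0.1, and 9 of the KO libraries were nearest their own number, a hint from the data and not the design. With the replicate block within T6, no member call changed, 143 genes were called at T6 (88 higher and 55 lower) and Ifit1 had -1.43 (edgeR adjusted p = 0.0681) for the change of its difference from T0. With the replicate block over all times, Ifit1bl1 at T0 had 1.81 (edgeR adjusted p = 0.0762) and 78 genes were called at T6. That block takes a number as the same source at all times. The Y-linked WT library was replicate 2 at T0, 1 at T6, 2 at T16 and 3 at T32, so the numbers do not follow a source. When scaled by library totals alone, the all-gene median log2 fold change was -1.0 in KO T6 against T0 and -0.94 in WT T6 against T0, against -0.17 and -0.14 with TMM, and it was -0.15 to -0.20 between genotypes. Depth did not limit the members, and it does limit Ifnb1, which had 4 to 52 reads per T0 library.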
